A study of Homo sapiens with 6 samples.

Results

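The transcriptional coactivators YAP (gene YAP1) and TAZ (gene WWTR1) were examined with 8 other genes. These bind the coactivators, restrain them, act on that restraint or are transcribed under them in many cell types. They are TEAD1, LATS2, AMOTL2, AJUBA, CCN1 (also CYR61), CCN2 (also CTGF), ANKRD1 and AXL. The 10 genes were chosen by name and are 10 of the 58825 genes in the deposited table. All 10 were matched by symbol and all 10 passed the minimum level for testing, a mean of 0.1 FPKM over the libraries (FPKM is fragments counted per kilobase of a transcript and adjusted for the size of the library, a level that is comparable between genes).

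The cells were HK-2, a human line of immortalized proximal tubular epithelium. Poly(A) RNA was sequenced from 3 untreated Control cultures and from 3 cultures given 25 μg/ml OX-LDL (oxidized low-density lipoprotein) for 48 h. Per the study's methods the cells were grown in DMEM/F12 with fetal bovine serum and were kept in low serum before OX-LDL was added. The labels give no time for the Control cultures, name no batch, and describe 1 cell line with no genetic change, so the groups differ by OX-LDL in the labels and in nothing else that they state. The study states in general that its work on cells was repeated in independent experiments, but neither it nor the labels say which of the 6 libraries came from which experiment. If they share one, p-values measure only the spread between these libraries, which may be technical.

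YAP and TAZ lack a DNA-binding domain and act in the nucleus through TEAD factors. In the Hippo pathway, the kinases STK3 and STK4 activate LATS1 and LATS2, which phosphorylate YAP and TAZ and keep them in the cytoplasm, and angiomotins such as AMOTL2 also hold them there. Cell shape, matrix stiffness and soluble factors act on this step, and in kidney tubules YAP and TAZ are known for their part in injury and fibrosis. RNA-seq measures the transcripts of these genes, not the place or phosphorylation of the proteins.

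TEAD factors bind the core GGAATG. It was searched on both strands in the 250 bases before RefSeq transcript starts of GRCh38.p14, together with the AP-1 letters TGANTCA. These letters can share their end bases with a TEAD core but did not do so in the windows of these genes. The set of promoter windows used here held 12 windows for 8 of the 10 genes, and it had no entry for TEAD1 or CCN1. The core was found in 6 windows of 6 genes: YAP1, AMOTL2, AJUBA, CCN2, ANKRD1 and AXL. In AJUBA and AMOTL2, as at the core of ANKRD1 nearer to the start, it lay inside an annotated exon of the gene itself. Of all 35116 windows, 11.9% held it. CCN2 had the core at 3 positions, beginning 169, 104 and 95 bases before the start, and ANKRD1 had it at 2, beginning 220 and 128 bases before. The start used for ANKRD1 is an inner one, and 189 of the 250 bases before it belong to an annotated exon of ANKRD1. ANKRD1 also held the AP-1 letters at 195 bases before its start, as did 6.57% of all windows. WWTR1 (2 windows) and LATS2 had neither, which says only that these letters are absent from these windows. A match is a description and not a measured binding site.

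The following stretches are shown because they carry, or in WWTR1 lack, the TEAD core in genes described below. They are those of CCN2 (chr6:131951373-131951622, minus strand) and of ANKRD1 before an inner start (chr10:90921276-90921337, minus strand). The others are those of AXL before an inner start (chr19:41226505-41226754, plus strand), YAP1 (chr11:102110197-102110446, plus strand) and WWTR1 before an inner start (chr3:149658101-149658275, minus strand). Each is written 5′ to 3′ on the strand of its gene, ends where the gene's annotated exon begins, and has matches to the TEAD core or its complement and to the AP-1 letters in capitals. The cores that lie inside an annotated exon are not shown.
CCN2: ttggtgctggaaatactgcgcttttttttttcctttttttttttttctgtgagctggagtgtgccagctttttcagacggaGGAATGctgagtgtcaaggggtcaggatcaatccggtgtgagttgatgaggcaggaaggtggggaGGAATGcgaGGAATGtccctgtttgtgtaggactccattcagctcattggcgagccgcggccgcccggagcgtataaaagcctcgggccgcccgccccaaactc
ANKRD1: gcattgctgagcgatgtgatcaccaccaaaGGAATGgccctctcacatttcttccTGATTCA
AXL: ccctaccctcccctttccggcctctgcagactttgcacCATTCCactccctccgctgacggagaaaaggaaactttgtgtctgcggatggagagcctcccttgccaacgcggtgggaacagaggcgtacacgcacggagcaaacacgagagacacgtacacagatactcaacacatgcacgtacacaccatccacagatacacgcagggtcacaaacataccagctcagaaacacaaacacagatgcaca
YAP1: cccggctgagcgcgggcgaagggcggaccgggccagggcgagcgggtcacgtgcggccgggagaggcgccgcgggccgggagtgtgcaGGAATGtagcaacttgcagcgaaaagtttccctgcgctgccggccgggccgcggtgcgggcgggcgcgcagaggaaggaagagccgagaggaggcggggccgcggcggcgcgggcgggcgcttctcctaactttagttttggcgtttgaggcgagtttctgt
WWTR1: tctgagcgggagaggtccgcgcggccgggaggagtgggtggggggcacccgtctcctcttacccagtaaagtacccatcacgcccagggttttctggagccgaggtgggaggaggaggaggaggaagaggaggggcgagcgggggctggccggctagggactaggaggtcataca

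Among the 10 genes, WWTR1 rose and AJUBA fell with OX-LDL, and the other 8 did not pass the test. WWTR1 went from 39.9 ± 0.588 to 56.2 ± 0.915 FPKM and AJUBA from 37.4 ± 1.98 to 25.2 ± 0.683 FPKM (SD, n = 3 per group). YAP1 was at 24.8 ± 0.389 FPKM in Control and 23.6 ± 1.82 in OX-LDL. The established targets CCN1, CCN2, ANKRD1 and AXL had log2 fold changes between -0.19 and 0.11.

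The test was edgeR's quasi-likelihood test on the deposited counts, fitted over 19510 genes, with Benjamini-Hochberg adjustment over all of them and a threshold of 0.05. In that fit 15.3% of all genes were called, 7.91% higher and 7.42% lower, and 2 of the 10 genes were, 1 higher and 1 lower. In a fit of only the 12259 genes that averaged 1 FPKM or more, as all 10 did, 25.7% were called, and again 2 of the 10. In 5 of the 10 genes (50.0%) the OX-LDL and Control libraries did not overlap in FPKM, against 37.2% of all genes tested. That 37.2% includes genes under 1 FPKM, and no such share was taken at a minimum of 1 FPKM. An unadjusted p-value under 0.05 was found in 3 of the 10, against 30.4% of all genes. Of the 10 genes, 4 were higher and 6 lower in OX-LDL, with a median log2 fold change of -0.08, and the median over all genes was -0.00. Log2 fold changes are OX-LDL over Control throughout, and each is given with its standard error (SE). The values of single libraries are given in the order of replicates 1, 2 and 3. In bulk RNA, a change in transcript per cell and a change in the share of cells that hold the transcript cannot be told apart.

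**Figure D1:**
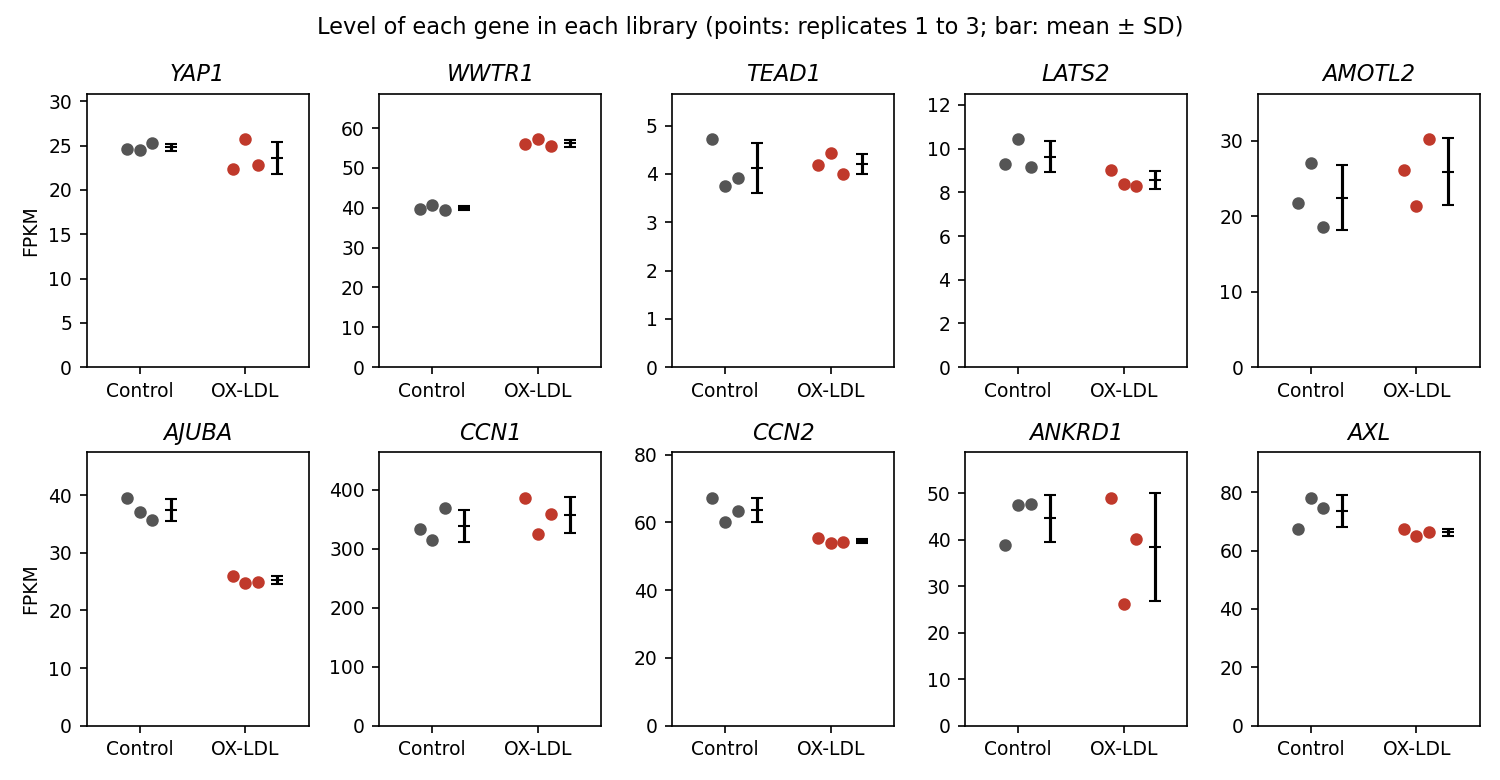
The level of each of the 10 genes, in FPKM from 0 on a linear axis, in the 3 Control (grey) and 3 OX-LDL (red) libraries, with bars for the mean ± SD of each group. WWTR1 lies at 39.5 to 40.6 FPKM in Control and 55.5 to 57.2 in OX-LDL, AJUBA at 35.7 to 39.6 and 24.8 to 26.0, and the groups of YAP1, TEAD1, AMOTL2, CCN1 and ANKRD1 overlap.

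The total deposited counts were 62561347 to 76797607 per library, at about 4 counts per read pair. Each of the 10 genes had between 3307 and 79453 counts in each library, so none of them is limited by low counts. None of the 6 libraries differed from another of its group as little as repeat sequencing of 1 library would. Of the 10 genes, 8 overlap another annotated gene, and whether counting used the strand is not given in the sources used here. The highest level of any overlapping gene was 1.15 FPKM in a library, against a lowest level of 3.75 FPKM for the 10 genes.

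The labelled cell type was checked against marker genes. Of 6 kidney epithelial markers, KRT8, KRT18, EPCAM and PAX8 had a mean over 1 FPKM, and the sum of the 6 was 163 to 190 FPKM in Control and 183 to 217 in OX-LDL. CDH1, which encodes E-cadherin, was near 0, at 0.0968 FPKM in Control and 0.106 in OX-LDL on average. Of 7 proximal tubule markers only GGT1 was over 1 FPKM, LRP2 had 0 counts in every library, and the sums were 3.37 to 18.9 FPKM in Control and 16.1 to 17.9 in OX-LDL. Fibroblast markers summed to 10.1 to 12 FPKM in Control and 8.77 to 14.1 in OX-LDL, with LUM the only one of 7 over 1 FPKM and DCN at 0 counts in every library. Leukocyte markers summed to 3.11 to 7.74 FPKM in Control and 9.16 to 13.9 in OX-LDL. Nearly all of that was CD68, a lysosomal protein that epithelial cells can also make, and PTPRC, which every leukocyte expresses, had 0 counts in 5 of the 6 libraries. No endothelial marker of 4 and no podocyte marker of 3 reached 1 FPKM, and endothelial markers summed to at most 0.0957 FPKM in any library. Of the fibroblast, endothelial, leukocyte and podocyte markers, only COL1A1, LUM, CD68 and CD14 reached the minimum level for testing. None of these was called in the edgeR test. CD68 was higher in all 3 OX-LDL libraries than in any Control library, with an unadjusted p = 0.0180 and an adjusted p = 0.0858 in that test. Of the epithelial markers, KRT8 was called higher, at 37.5 FPKM in Control and 65.4 in OX-LDL on average, and PAX8, a transcription factor of kidney epithelium, was called lower, at 46.6 and 19.4 FPKM. The part of these markers in the results below was not tested.

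Of the coactivators, WWTR1 rose and YAP1 did not pass the test. WWTR1 (ENSG00000018408, minus strand of chromosome 3 from 149517235 to 149736714, GRCh38), which encodes TAZ, had 39.6, 40.6 and 39.5 FPKM in the Control libraries against 55.9, 57.2 and 55.5 in OX-LDL. Every OX-LDL library was above every Control library, and the spread within each group was small, with a coefficient of variation of 1.47% in Control and 1.63% in OX-LDL. The fitted change was 0.53 on the log2 scale (standard error 0.05, 95% interval 0.40 to 0.66), a 1.44-fold rise, with an adjusted p = 0.00292 in the edgeR test. A change of at least this size was fitted in 31.9% of all genes tested and WWTR1 ranked 212 among them by p-value.

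YAP1 (ENSG00000137693, plus strand of chromosome 11 from 102110447 to 102233424) encodes the paralogue of TAZ. It had 24.7, 24.5 and 25.3 FPKM in the Control libraries against 22.4, 25.7 and 22.8 in OX-LDL. OX-LDL replicate 2 was the highest of the 6 libraries while replicates 1 and 3 were below all Control libraries, so the groups overlapped. On the log2 scale the change was -0.04 (standard error 0.08, 95% interval -0.22 to 0.15), with an adjusted p = 0.790 in the edgeR test. The lowest bound of the interval for WWTR1 lies above the highest bound for YAP1.

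The ratio of WWTR1 to YAP1, taken within each library, compares both coactivators on the FPKM scale. It was 1.61, 1.65 and 1.57 in Control and 2.50, 2.23 and 2.44 in OX-LDL. WWTR1 was thus the higher of the pair in all 6 libraries, and the ratio was higher in 3 of 3 OX-LDL libraries than in any Control library, with means of 1.61 ± 0.0447 and 2.39 ± 0.142 (SD, n = 3). The log2 difference was 0.57, and the exact two-sided permutation p was 0.1, the smallest that 3 against 3 can give (0.2 after Benjamini-Hochberg adjustment over 4 ratios). The share of WWTR1 in the summed level of both went from 61.7 ± 0.656% to 70.4 ± 1.27%, and the sum from 64.7 ± 0.432 to 79.8 ± 2.69 FPKM.

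**Figure D2:**
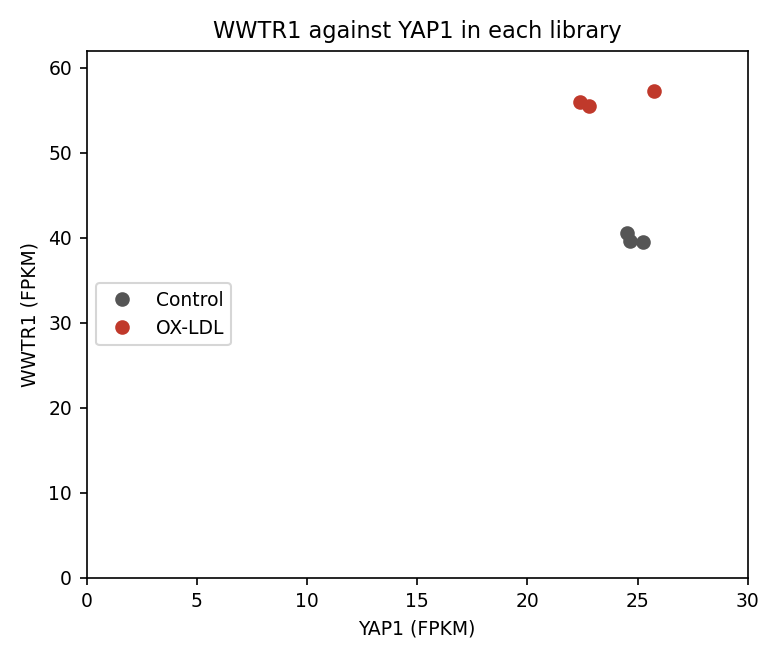
WWTR1 (vertical axis, FPKM) against YAP1 (horizontal axis, FPKM) in each of the 6 libraries, both axes linear from 0, with Control in grey and OX-LDL in red. The groups separate along the WWTR1 axis, at 39.5 to 40.6 and 55.5 to 57.2 FPKM, and share their range of YAP1, at 22.4 to 25.7 FPKM in OX-LDL and 24.5 to 25.3 in Control.

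TEAD1 (ENSG00000187079, plus strand of chromosome 11 from 12674421 to 12944737), a DNA-binding partner of YAP and TAZ, was the lowest of the 10 genes. It had 4.72, 3.75 and 3.92 FPKM in the Control libraries against 4.18, 4.43 and 4.0 in OX-LDL. The OX-LDL libraries all lay inside the Control range. The log2 fold change was 0.06 (standard error 0.11, 95% interval -0.21 to 0.32), with an adjusted p = 0.792 in the edgeR test. The other members of the family were also expressed: TEAD2 at 8.18 ± 0.329 and 7.74 ± 1.40 FPKM in Control and OX-LDL, TEAD3 at 4.41 ± 1.77 and 5.82 ± 0.911, and TEAD4 at 10.1 ± 0.853 and 12.2 ± 1.27 (SD, n = 3 per group). None of them passed the edgeR test, with adjusted p = 0.860 for TEAD2, 0.391 for TEAD3 and 0.122 for TEAD4. The change of TEAD4 was 0.31 on the log2 scale (standard error 0.11), with its OX-LDL libraries at 13.2, 10.8 and 12.7 FPKM and its Control libraries at 9.82, 9.40 and 11.0. TEAD3 was set apart by Control replicate 1, at 2.45 FPKM against 5.87 and 4.91 in the other Control libraries. VGLL4, which competes with YAP and TAZ for TEAD factors, was at 7.10 ± 0.357 FPKM in Control and 7.10 ± 0.542 in OX-LDL (log2 change 0.03 with an SE of 0.09, adjusted p = 0.855 in the edgeR test).

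Of the proteins that restrain YAP and TAZ or act on that restraint, AJUBA fell and LATS2 and AMOTL2 did not pass the test. AJUBA (ENSG00000129474, minus strand of chromosome 14 from 22971177 to 22982551) encodes a LIM-domain protein of cell junctions that binds LATS kinases and holds back their activity. It had 39.6, 37.0 and 35.7 FPKM in the Control libraries against 26.0, 24.8 and 24.9 in OX-LDL. Every OX-LDL library was below every Control library, with a gap between the groups wider than the range within either. AJUBA fell by 0.54 on the log2 scale (standard error 0.07, 95% interval -0.70 to -0.37), to 0.689 times its Control level, with an adjusted p = 0.00601 in the edgeR test. A change of at least this size was fitted in 31.1% of all genes tested.

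LATS2 (ENSG00000150457, minus strand of chromosome 13 from 20973036 to 21061586) encodes a kinase that phosphorylates YAP and TAZ and is itself transcribed under them. It had 9.30, 10.4 and 9.15 FPKM in the Control libraries against 9.02, 8.41 and 8.27 in OX-LDL. The groups did not overlap, but the highest OX-LDL library and the lowest Control library were close. The fitted change was -0.14 on the log2 scale (standard error 0.08, 95% interval -0.32 to 0.05), with an adjusted p = 0.301 in the edgeR test. Its paralogue LATS1 was at 7.05 ± 0.535 FPKM in Control and 5.84 ± 0.124 in OX-LDL (SD, n = 3), without overlap (log2 change -0.24 with an SE of 0.08, adjusted p = 0.0875 in the edgeR test). The ratio of LATS2 to LATS1 was 1.37 ± 0.129 in Control and 1.47 ± 0.0917 in OX-LDL, with an exact two-sided permutation p of 0.4 (0.533 after adjustment over the 4 ratios).

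AMOTL2 (ENSG00000114019, minus strand of chromosome 3 from 134355874 to 134374594) encodes an angiomotin, which binds YAP and TAZ, and is also one of their targets. It had 21.7, 27.0 and 18.5 FPKM in the Control libraries against 26.1, 21.4 and 30.2 in OX-LDL. The libraries of both groups were interleaved, with a coefficient of variation of 19.1% in Control and 17.1% in OX-LDL. On the log2 scale the change was 0.24 (standard error 0.17, 95% interval -0.16 to 0.64), with an adjusted p = 0.398 in the edgeR test. The interval holds both 0 and the change of WWTR1. The ratio of AMOTL2 to AMOTL1 was 7.42 ± 2.10 in Control and 8.16 ± 1.76 in OX-LDL, with an exact two-sided permutation p of 0.7, also after adjustment.

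The 4 genes that were listed as targets only, CCN1, CCN2, ANKRD1 and AXL, were not called. CCN1 (ENSG00000142871, plus strand of chromosome 1 from 85580761 to 85583950) encodes a secreted matrix protein and was the most abundant of the 10 genes, above 99.8% of all genes tested. It had 333, 314 and 369 FPKM in the Control libraries against 387, 326 and 359 in OX-LDL. The groups overlapped over most of their range. The log2 fold change was 0.11 (standard error 0.09, 95% interval -0.11 to 0.32), with an adjusted p = 0.486 in the edgeR test.

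CCN2 (ENSG00000118523, minus strand of chromosome 6 from 131948176 to 131951372), a secreted matrix protein of the same family that is known for its part in fibrosis, had 67.3, 60.1 and 63.4 FPKM in the Control libraries against 55.3, 54.0 and 54.2 in OX-LDL. All 3 OX-LDL libraries were below all 3 Control libraries, and they lay close together. The fitted change was -0.19 on the log2 scale (standard error 0.07, 95% interval -0.36 to -0.02), with an unadjusted p = 0.0347 and an adjusted p = 0.131 in the edgeR test, so it was not called. The adjusted p ranged from 0.0607 to 0.294 over 15 other ways of running the test. CCN2 was the gene with 3 TEAD cores in the stretch printed above.

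CCN1 and CCN2 thus had fitted changes of opposite sign. The ratio of CCN1 to CCN2 was 4.95, 5.23 and 5.82 in Control and 6.99, 6.03 and 6.62 in OX-LDL. The groups did not overlap, and the means were 5.33 ± 0.444 and 6.55 ± 0.489 (SD, n = 3), a log2 difference of 0.30. The exact two-sided permutation p was 0.1, the smallest possible, and 0.2 after adjustment over the 4 ratios.

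ANKRD1 (ENSG00000148677, minus strand of chromosome 10 from 90912096 to 90921276) encodes an ankyrin repeat protein of the nucleus and of muscle sarcomeres. It had 38.8, 47.4 and 47.6 FPKM in the Control libraries against 49.1, 26.2 and 40.3 in OX-LDL. OX-LDL held both the highest and the lowest of the 6 libraries, and its coefficient of variation of 30.0% was the largest in either group among the 10 genes. On the log2 scale the change was -0.18 (standard error 0.22, 95% interval -0.69 to 0.33), with an adjusted p = 0.633 in the edgeR test. Without OX-LDL replicate 2 it was 0.03, so its sign rested on that library.

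AXL (ENSG00000167601, plus strand of chromosome 19 from 41219223 to 41261766) encodes a receptor tyrosine kinase that binds GAS6. It had 67.5, 78.2 and 74.7 FPKM in the Control libraries against 67.3, 65.0 and 66.4 in OX-LDL. The groups did not overlap, but Control replicate 1 and OX-LDL replicate 1 were nearly equal. The log2 fold change was -0.12 (standard error 0.07, 95% interval -0.28 to 0.04), with an adjusted p = 0.300 in the edgeR test.

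**Figure D3:**
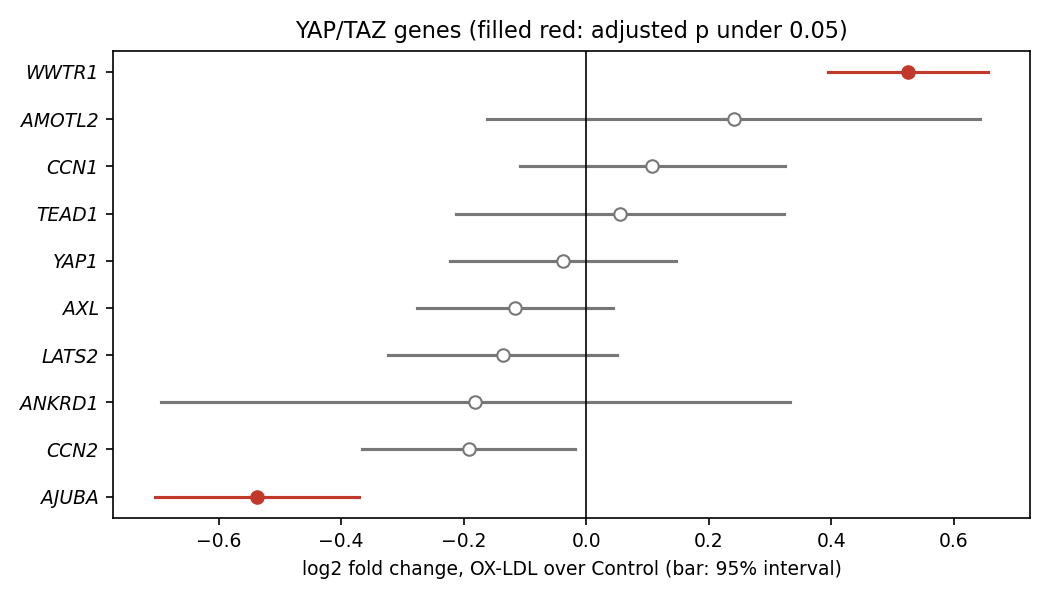
The fitted log2 fold change of each of the 10 genes, OX-LDL over Control, with its 95% interval from the edgeR fit. WWTR1 at 0.53 and AJUBA at -0.54 were called at an adjusted p under 0.05, and of the others only the interval of CCN2, -0.36 to -0.02, leaves out 0.

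Ordered by level, the 10 genes in Control were CCN1, AXL, CCN2, ANKRD1, WWTR1, AJUBA, YAP1, AMOTL2, LATS2 and TEAD1. Neighbours whose libraries overlapped were ANKRD1 with WWTR1, WWTR1 with AJUBA, and YAP1 with AMOTL2. In OX-LDL the order was CCN1, AXL, WWTR1, CCN2, ANKRD1, AMOTL2, AJUBA, YAP1, LATS2 and TEAD1, and the neighbours from ANKRD1 to YAP1 overlapped. WWTR1 thus stood beside AJUBA and ANKRD1 in Control and just above CCN2 in OX-LDL. There its lowest library, at 55.5 FPKM, was nearly equal to the highest of CCN2, at 55.3 FPKM. OX-LDL replicate 1 was the highest of its group in 6 of the 10 genes and OX-LDL replicate 2 the lowest in 6.

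Genes whose levels followed those of YAP1, WWTR1, CCN1 and CCN2 most closely were sought among the 12258 genes that averaged 1 FPKM or more, by Pearson's r of log2 normalized counts (CPM) over the 6 libraries. These correlations are descriptions over 6 points that share their libraries and depth. For YAP1 they were GAA (r = 0.996), TEF (0.994) and SLC39A3 (0.993), and 35 genes had r over 0.95. For WWTR1, whose pattern is mostly the step between the groups, 587 genes had r over 0.95, led by SRSF9 (0.999), the read-through gene RPL36A-HNRNPH2 (0.999) and DCAF13 (0.998). RPL36A-HNRNPH2 overlaps both genes it is named for, so its reads are uncertain. It averaged 0.0001 FPKM in Control, the value listed for a count of 0, and 50.4 FPKM in OX-LDL. Its high r thus stands for a step from no counts and not for a rise of the size of that of WWTR1. For CCN1 they were MIR222HG (0.974), the small nucleolar RNA SNORD101 (0.973) and C8orf88 (0.972), and for CCN2 they were PRR3 (0.994), ARIH1 (0.987) and SECISBP2 (0.985). None of the 10 genes was among these nearest genes.

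Of 25 other genes of the Hippo pathway, 23 were tested (VGLL3 and DCHS1 were under the minimum level) and 3 were called, 13.0% against 15.3% of all genes. With a minimum of 1 FPKM, 4 of 22 were called, against 25.7% of all genes in that fit. Their libraries did not overlap in 6 of the 23 (26.1%, against 37.2%), and the median log2 fold change was 0.09. STK3, which like STK4 activates LATS1 and LATS2, rose from 2.55, 2.36 and 2.46 FPKM in Control to 3.52, 3.62 and 3.32 in OX-LDL. The change was 0.54 on the log2 scale (standard error 0.08, adjusted p = 0.00894 in the edgeR test). STK4, named after its values had been seen, was not called and had a fitted change of opposite sign. It had 3.50, 9.72 and 9.14 FPKM in Control against 9.09, 3.17 and 3.31 in OX-LDL. Its log2 change was -0.49 with an SE of 0.52 (adjusted p = 0.583 in the edgeR test). LIMD1, a LIM protein that like AJUBA binds LATS kinases, rose from 1.94 ± 0.109 to 2.62 ± 0.247 FPKM (SD, n = 3, log2 change 0.47 with an SE of 0.10, adjusted p = 0.0270 in the edgeR test). LIMD1 and AJUBA thus changed in opposite directions. TAOK3, a kinase of the family that acts on STK3 and STK4, fell by 0.42 on the log2 scale (standard error 0.08), from 3.02 ± 0.120 to 2.20 ± 0.112 FPKM, with an adjusted p = 0.0211 in the edgeR test. When any of Control replicates 1 and 2 and OX-LDL replicates 1 and 3 was left out, only STK3 was called, 1 gene in place of 3, and without OX-LDL replicate 2 there were 5.

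Of 15 other genes that are often counted as conserved YAP and TAZ targets, 14 were tested (FOXF2 was under the minimum level) and 9 were called, 6 higher and 3 lower. That is 64.3% of the 14 against 15.3% of all genes. The libraries of 12 of the 14 (85.7%) did not overlap, against 37.2% of all genes tested, which include genes under 1 FPKM. With a minimum of 1 FPKM, 10 of 13 were called, against 25.7% of all genes in that fit. The median log2 fold change was 0.31, from -1.43 to 2.76. The 15 genes are what is left of a common set of such targets after PTPN14 and those of the 10 genes that belong to it were taken out. PTPN14 was counted with the Hippo pathway genes and was not called (adjusted p = 0.895 in the edgeR test). LATS2, AMOTL2, CCN1, CCN2, ANKRD1 and AXL, the genes described as targets among the 10, were not called either. WWTR1 and AJUBA, which were called, were listed as a coactivator and a LATS inhibitor and not as targets. The targets taken out were thus all uncalled, so the shares called are higher here than over the whole set. The 14 genes were compared with all genes by counts only and the list was not tested as a set. Several of them are also regulated by other pathways, and earlier results of these libraries were known when the list was made, so the share is no independent evidence on YAP or TAZ.

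CCDC80, a secreted protein of the extracellular matrix, had 2.50, 2.14 and 3.04 FPKM in the Control libraries against 15.1, 12.7 and 23.3 in OX-LDL. It rose furthest of the 14 (log2 change 2.76 with an SE of 0.26, adjusted p = 0.00207 in the edgeR test). IGFBP3, a secreted binding protein of insulin-like growth factors, rose from 7.33 ± 1.41 to 19.2 ± 4.80 FPKM (SD, n = 3, log2 change 1.42 with an SE of 0.23, adjusted p = 0.0107 in the edgeR test). NT5E, the surface enzyme that makes adenosine from AMP, rose from 6.44 ± 0.763 to 12.7 ± 0.107 FPKM (log2 change 1.01 with an SE of 0.10, adjusted p = 0.00258 in the edgeR test). F3, the tissue factor that starts coagulation, rose from 12.1 ± 1.61 to 24.0 ± 6.23 FPKM (log2 change 1.01 with an SE of 0.21, adjusted p = 0.0223 in the edgeR test), and it was not called when any of Control replicates 2 and 3 and OX-LDL replicates 1 and 3 was left out.

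GADD45A, a stress-induced inhibitor of growth, had 28.1, 37.3 and 36.2 FPKM in the Control libraries against 15.5, 10.5 and 10.7 in OX-LDL. It fell by 1.43 on the log2 scale (standard error 0.18), with an adjusted p = 0.00525 in the edgeR test. NUAK2, a kinase related to AMPK, fell by 1.03 on the log2 scale (standard error 0.09), from 20.0 ± 1.93 to 9.56 ± 0.502 FPKM (SD, n = 3), with an adjusted p = 0.00190. The other 3 called genes were named after their values had been seen: RBMS3 and MYOF were higher, with adjusted p = 0.0334 and 0.0484, and FJX1 was lower, with an adjusted p = 0.0394 in the edgeR test. RBMS3 was at 0.149 ± 0.0728 FPKM in Control and 0.402 ± 0.0329 in OX-LDL, MYOF at 74.6 ± 0.962 and 85.7 ± 3.92, and FJX1 at 8.72 ± 1.73 and 5.44 ± 0.411. Leaving out either of OX-LDL replicates 1 and 3, the number called fell from 9 to 5, which were CCDC80, IGFBP3, NT5E, GADD45A and NUAK2, and it was 6 without Control replicate 2 and without Control replicate 3. MYOF lost its call when any 1 of the 6 libraries was left out. FJX1 lost it in each case but that of Control replicate 1, and RBMS3 in each but those of Control replicates 1 and 2.

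**Figure D4:**
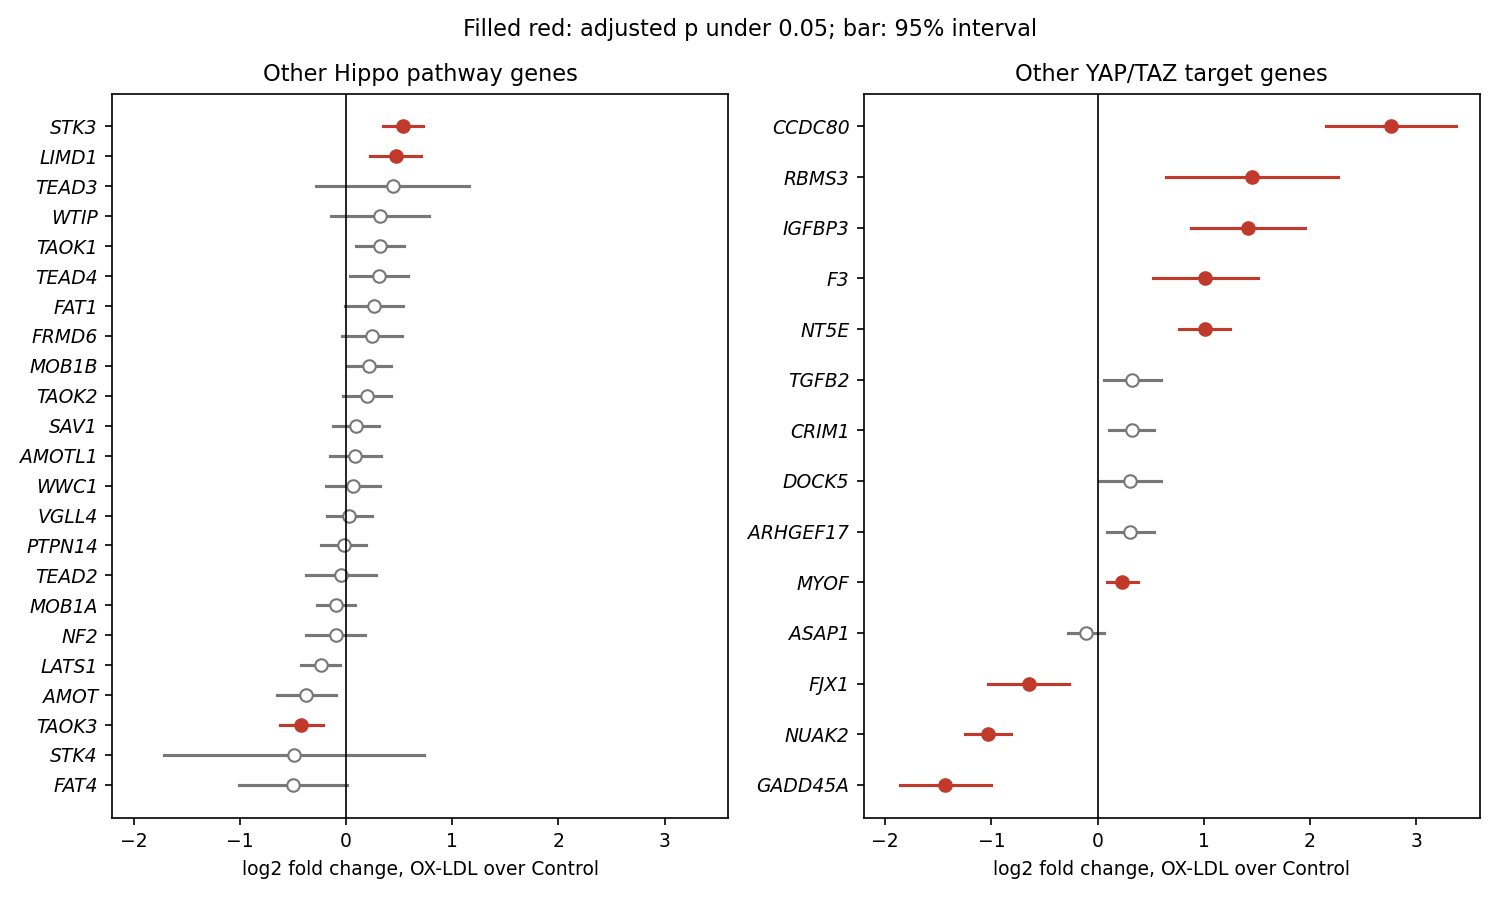
The fitted log2 fold change of the 23 other Hippo pathway genes and the 14 other target genes tested, OX-LDL over Control, with 95% intervals, filled red at an adjusted p under 0.05 in the edgeR test. The targets run from -1.43 (GADD45A) to 2.76 (CCDC80) with 9 called, and of the Hippo pathway genes only STK3, LIMD1 and TAOK3 are called.

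The calls of WWTR1 and AJUBA were kept in all 15 alternative analyses, which changed the count model, the scaling, the unit, the minimum level, the block for replicate numbers or the libraries used. WWTR1 had log2 fold changes between 0.48 and 0.54 in them and AJUBA between -0.57 and -0.48. None of the other 8 genes was called in any of the 15. The share of all genes called was 22.2% with DESeq2, 15.4% with RLE factors and with library totals only, 14.9% and 15.0% in limma with a pseudocount of 0.1 and of 1, 25.7% with a minimum of 1 FPKM, 7.46% with no minimum, 15.6% with counts divided by 4 and 8.39% with the replicate block. It was 9.21%, 5.95% and 10.2% without Control replicates 1, 2 and 3 in turn, and 6.47%, 15.1% and 5.96% without OX-LDL replicates 1, 2 and 3. YAP1 ranged from -0.10 to 0.01 and TEAD1 from -0.02 to 0.17 when single libraries were left out, so neither had a settled sign.

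**Figure D5:**
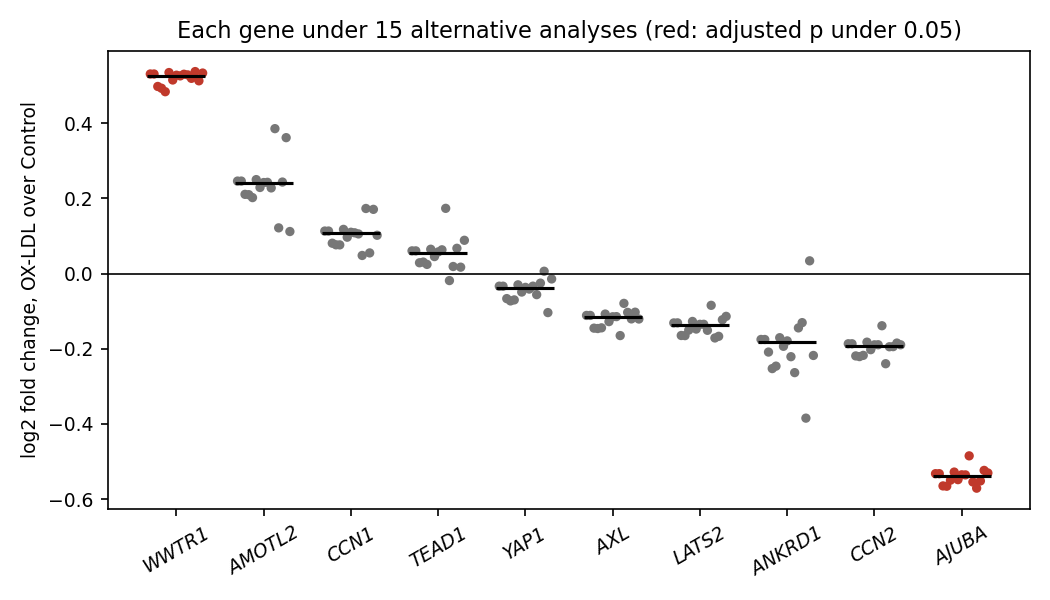
The log2 fold change of each of the 10 genes, OX-LDL over Control, under each of 15 alternative analyses (points, red where the adjusted p was under 0.05) with the value reported above as a black bar. WWTR1 stays between 0.48 and 0.54 and AJUBA between -0.57 and -0.48, in red throughout, and the points of YAP1, TEAD1 and ANKRD1 lie on both sides of 0.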

How the data were processed

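The authors deposited 1 table of 58825 genes, which gives estimated counts and FPKM for all 6 libraries. The submitters' processing notes name cutadapt 1.9, HISAT2 2.0.4, StringTie 1.3.4d, edgeR, DESeq2 and GRCh38, with no role or order. The deposited estimated counts are whole numbers that were not scaled for library size. FPKM values were scaled by the authors for transcript length and library size, with a count of 0 listed at 0.0001 in the table. Reads came in pairs from a poly(A) library made with a dUTP second strand.

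Counts were fitted with edgeR (version 4.0.16, R version 4.3.3): TMM factors, estimateDisp, glmQLFit and glmQLFTest, with the group as the only term, over the 19510 genes that averaged 0.1 FPKM or more. A standard error is the log2 fold change over the square root of F. The alternatives were DESeq2 (version 1.42.0), limma (version 3.58.1) on log2(FPKM + 0.1) and on log2(FPKM + 1), RLE factors, library totals only, a minimum of 1 FPKM, no minimum, counts divided by 4, a replicate block, and leaving out each library.

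The members, the gene lists, the tests and the alternatives were chosen with earlier results of these data known. Named were the 10 members, at most 6 called genes by smallest p from each of the other lists, TEAD2, TEAD3, TEAD4, LATS1 and VGLL4 whatever their values, and the 3 genes most like YAP1, WWTR1, CCN1 and CCN2. Promoter stretches are from RefSeq (GRCh38.p14), with exon limits from GENCODE release 29. Intervals cover the spread between libraries only, and depth is given with the results.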

Additional observations from a re-analysis of the deposited data

How the results depend on the processing

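The number of called genes among the 10 was 2 in all 15 alternatives. Among all genes it was 2991, and 1161 to 2943 when a library was left out. For the other Hippo pathway genes it was 3, 5 with DESeq2, and 1 to 5 when a library was left out. For the other target genes it was 9, and 5 to 8 when a library was left out. With the replicate block it was 2 among the 10 (WWTR1 and AJUBA), 2 among the Hippo genes, 6 among the targets and 1636 among all genes, and the calls lost were those of TAOK3 (adjusted p = 0.0615), MYOF (0.116), FJX1 (0.0686) and RBMS3 (0.0570) in edgeR. Same-numbered libraries had correlations of deviations of -0.0410, -0.00313 and 0.0356 over genes, and not every library correlated best with its own number. No pairing by number was seen in these values, but they cannot tell whether libraries of equal number share an experiment. Reversed signs were seen only in uncalled genes. YAP1 was -0.04 and became 0.00615 without OX-LDL replicate 1 (-0.104 to 0.00615 over the libraries left out), TEAD1 was 0.06 and became -0.0187 without Control replicate 2 (-0.0187 to 0.173), ANKRD1 was -0.18 and became 0.0338 without OX-LDL replicate 2 (-0.385 to 0.0338), and TEAD2 was -0.05 and became 0.0681 without OX-LDL replicate 3 (-0.193 to 0.0681). VGLL4 was 0.03, and was -0.00122 and -0.000948 in the limma fits with pseudocounts of 0.1 and 1 and -0.0308 to 0.0753 over the libraries left out. The causes were not tested. The adjusted p of WWTR1 ranged from 6.99e-11 to 0.0239 over the alternatives and that of AJUBA from 5.43e-07 to 0.0318. Among 17 named genes of the other lists, 210 of 254 alternative values kept their side of the threshold and direction, 39 were no longer called and 5 changed sign. Scaling moved the median of all genes by at most 0.03 (log2). With 3 libraries a group, the intervals of CCN1, LATS2 and AXL hold 0.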
